A study of Mus musculus with 2 samples.

Results

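The 10 Klf genes examined were Klf2, Klf3, Klf4, Klf6, Klf7, Klf9, Klf10, Klf12, Klf13 and Klf16, out of 22180 genes measured. They were taken by symbol, from probe sets annotated to that gene alone, and where a gene had 2 probe sets the brighter one was used. These genes were listed with results of the same comparison known, so their differences are a description and carry no test. The data came from 2 mouse arrays, 1 per group, each hybridised with RNA from freshly isolated spleen cells. Both groups carried the Fx-/- genotype, which removes an enzyme of GDP-fucose synthesis, now named Gfus, so that fucosylated glycans depend on supplied fucose. The on-fucose array held cells of fucose-treated mice and the off-fucose array cells of mice given no fucose treatment. Cells were depleted of B220+ and CD11b+ cells and then selected for CD11c, and are labelled conventional type 1 dendritic cells (cDC1). The age and number of the mice are not given in the sources used here, and no wild-type array was part of the comparison, so the genotype was shared by both groups.

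Klf proteins are transcription factors with a run of zinc fingers at the carboxyl end that binds CACCC boxes and related GC-rich letters, while their other parts differ and decide the partners they recruit. Klf3, Klf8 and Klf12 recruit the CtBP corepressors, Klf9, Klf10, Klf11, Klf13, Klf14 and Klf16 recruit Sin3 corepressors, and Klf1, Klf2, Klf4, Klf5, Klf6 and Klf7 mostly act as activators. In the spleen the family is known for Klf2, which keeps T cells quiescent and circulating, for Klf4, which acts in monocyte and dendritic cell development, and for Klf1, the activator of globin genes in red cell precursors.

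Promoter sequences are shown for Klf3, Klf4 and Klf6, the members with the largest differences, because the CACCC box is the sequence the family itself binds. Each is the 250 bases before the annotated start on the gene's own strand, from RefSeq on build GRCm38.p6. The windows lie at chr5:64803271-64803520 on the plus strand for Klf3, at chr4:55532476-55532725 on the minus strand for Klf4, and at chr13:5861239-5861488 on the plus strand for Klf6. Capitals mark CACCC and its reverse complement GGGTG.
Klf3: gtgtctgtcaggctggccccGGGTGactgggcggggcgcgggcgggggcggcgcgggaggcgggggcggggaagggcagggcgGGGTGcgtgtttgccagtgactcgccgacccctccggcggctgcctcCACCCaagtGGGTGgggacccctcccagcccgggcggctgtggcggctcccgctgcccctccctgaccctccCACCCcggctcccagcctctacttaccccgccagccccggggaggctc
Klf4: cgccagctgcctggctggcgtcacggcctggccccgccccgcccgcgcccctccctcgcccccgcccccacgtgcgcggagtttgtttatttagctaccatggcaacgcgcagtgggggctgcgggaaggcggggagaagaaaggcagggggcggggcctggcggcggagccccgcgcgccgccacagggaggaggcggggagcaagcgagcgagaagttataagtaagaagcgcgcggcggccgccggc
Klf6: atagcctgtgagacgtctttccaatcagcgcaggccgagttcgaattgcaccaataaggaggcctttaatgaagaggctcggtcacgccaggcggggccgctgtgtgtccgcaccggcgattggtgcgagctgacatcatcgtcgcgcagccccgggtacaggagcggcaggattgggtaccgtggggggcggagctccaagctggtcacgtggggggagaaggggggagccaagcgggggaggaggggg
The Klf3 window held 5 matches, 2 of CACCC and 3 of GGGTG, beginning between 230 and 48 bases before the start. Neither the Klf4 nor the Klf6 window held a match. Of 32851 promoter windows of this length, 52.0% held at least 1 match and 0.667% held 5 or more. Windows were found for 8 of the 10 members, and 6 of them (75.0%) held a match. Klf7 had 3, and Klf2, Klf9, Klf12 and Klf13 had 1 each. Klf10 and Klf16 had no entry. A match describes the letters of the window and shows no binding.

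The array values are RMA intensities, given here as log2 intensity, and differences are the off-fucose value minus the on-fucose value, so that 1 is a 2-fold difference. The expression filter kept the 11090 genes whose mean of both arrays was 2.88 or more, the median over genes, and their median difference was -0.05. Of the 10 Klf genes 9 passed, and Klf12 did not. Klf4 passed only through its off-fucose value. A test needs replicates, which 1 array per group does not give, so no difference here has a replicate check. Fewer cells of a type and less RNA per cell cannot be told apart in RNA from such a pool of cells.

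The labelled cell type was checked against its markers. The cDC1 chemokine receptor gene Xcr1 had 2.90 on fucose and 3.43 off fucose, Itgax, which encodes CD11c, had 3.83 and 3.86, and Clec9a had no probe set of its own. The T cell markers were high on both arrays. All 8 measured of 11 lay in the top 20% of genes, with Cd3e, part of the CD3 complex, at 10.97 and 10.55, so the Klf values cannot be read as those of cDC1 alone. Of the 9 measured cDC1 markers 3 were in the top 20% on fucose, namely Cd8a, Itgae and Naaa. Off fucose 6 were, these 3 among them. The part of T cells in the Cd8a and Itgae values was not tested, so the counts cannot be read as cDC1 signal alone. The median difference of the 9 cDC1 markers was 0.92, and 4 were at least 2-fold higher off fucose, against 2.37% of all genes past the filter. Among the 4 were Irf8 (2.50), Naaa (2.39) and Tlr3 (2.01). Itgae (-0.38) and Cd8a (-0.16) were lower off fucose. The rise was not particular to cDC1 markers. Markers of type 2 conventional dendritic cells had a median of 0.89, with 3 of 6 past the filter at least 2-fold higher and 1 lower. Of these 3, Clec12a (2.78 on fucose) passed the filter only through its off-fucose value. Markers shared by conventional dendritic cells, Itgax among them, had a median of 0.94, with 1 of 5 at least 2-fold higher. Off fucose, the markers of granulocyte precursors had a median difference of 3.54, those of basophils and mast cells 1.57 and those of B cells -0.02. The value 3.54 is that of S100a8 (2.08 on fucose) and 1.57 that of Fcer1a (2.56 on fucose). Both genes passed the filter only through their off-fucose values, so the size of these medians is not settled. The arrays also differed in the sex-linked genes Xist, at 8.26 on fucose and 2.82 off fucose, and Uty, at 2.14 and 5.26. This difference and the fucose supply cannot be told apart.

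Across the family 1 gene was at least 2-fold lower off fucose, Klf3, and 1 at least 2-fold higher, Klf4. Of all genes past the filter, 0.514% were at least 2-fold lower and 2.37% at least 2-fold higher. Since the members were chosen from this comparison, nothing is read from their count. At 1.5-fold Klf6 joined the higher ones, where 5.77% of all genes were higher and 4.27% lower. The median difference of the 9 genes past the filter was -0.13, and over all 10 genes it was -0.03. The family therefore had no common direction. Centring the differences on the T cell markers, a setting chosen after seeing the data, turned the first median to 0.10. This centring subtracts the median of the T cell markers (-0.23) from every gene. It shifts all lists alike and does not measure the part of T cells in a value.

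**Figure D1:**
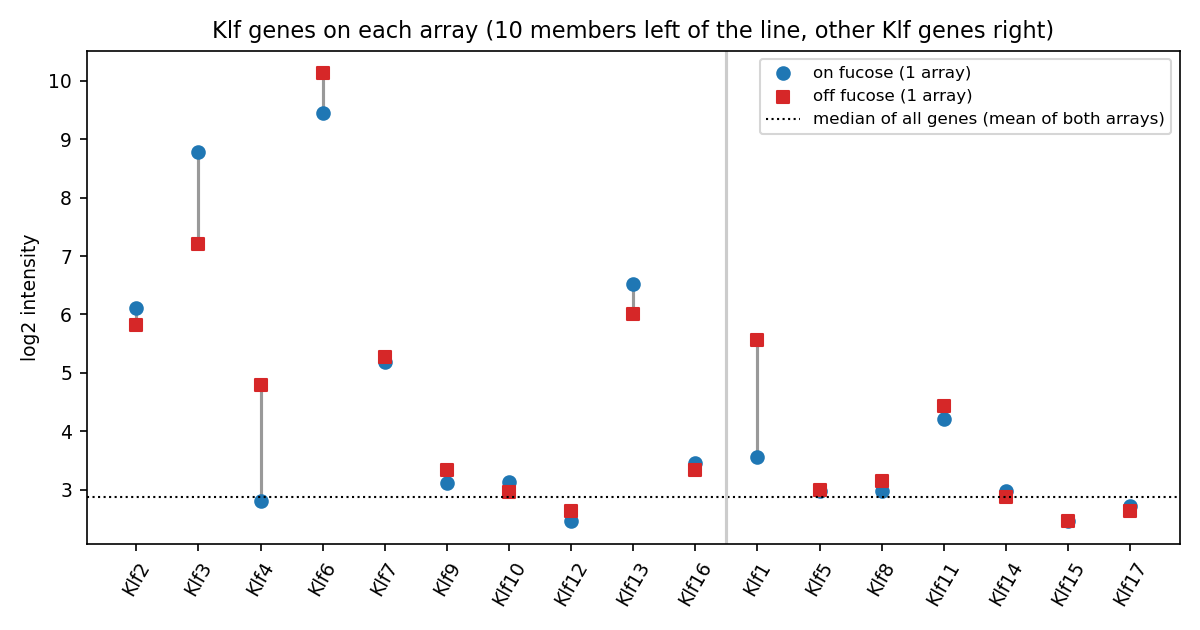
Log2 intensity (vertical axis) of each Klf gene on the on-fucose array (circles) and the off-fucose array (squares), 1 array each, with the 10 members left of the grey line and the 7 other Klf genes right of it; the dotted line is the median of all genes, 2.88. Klf3 lies at 8.78 on fucose and 7.20 off fucose, Klf4 and Klf1 lie higher off fucose, and Klf5, Klf10, Klf12, Klf14, Klf15 and Klf17 lie near the dotted line on both arrays.

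Klf3, a repressor that acts through CtBP and is known from B cell and red cell development, had log2 values of 8.78 on fucose and 7.20 off fucose. The intensities behind these values were 441 and 147. Klf3 was high on both arrays, at percentile 97.5 of all genes on fucose and 91.2 off fucose. The difference of -1.59 is 3.01-fold, and it was the 12th lowest of the 11090 genes past the filter. Among the 1088 genes with a mean at or above that of Klf3, no other gene had a lower difference. Genes of like intensity had differences with a robust SD of 0.21, a yardstick that holds array noise and biology alike. Over 6 ways of processing, the deposited values included, the value ran from -1.59 to -1.35. Klf3 has 1 probe set, so the mean of probe sets could not move it, and each centring shifts all genes alike. The range is therefore no replicate check.

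Klf12, the second member of the CtBP-binding group and a known repressor, had 2.47 on fucose and 2.64 off fucose. Both values lie below the filter and below the array medians, and the difference was 0.17. Klf8, the third gene of that group and not one of the 10, had 2.98 and 3.15. The pattern of Klf3 was thus not seen in the measured values of its closest relatives, both of which were dim on the arrays. Ctbp1, the gene of a corepressor that Klf3 recruits, had 8.76 and 8.66, a difference of -0.09. Ctbp1 was chosen after its value was seen.

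Among genes known to be repressed by Klf3, 3 were measured and all 3 had higher values off fucose. Whether Klf3 acts on them in these cells was not tested. Of all genes past the filter 42.2% had a higher value off fucose. C1qtnf12, which encodes the secreted protein adipolin, went from 5.36 to 8.10. This difference of 2.74 is 6.67-fold and was the 33rd highest of 11090 genes. Lgals3, which encodes galectin-3, went from 4.27 to 4.92, a difference of 0.64. Klf8 differed by 0.18, under the robust SD of genes of like intensity (0.27). The median of these 3 was 0.64, the value of Lgals3, against -0.05 for all genes. Lgals3 is also a gene of macrophages and monocytes, and markers of monocytes and red cell precursors were higher on the same array. The part of those cells in these values was not tested.

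Klf2, the activator that maintains quiescence and egress of T cells, had 6.11 on fucose and 5.82 off fucose. Its difference of -0.30 equals the robust SD of genes of like intensity (0.30). With centring on the T cell markers it was -0.06.

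Genes of lymphocyte homing and egress, some of them known targets of Klf2, had 7 of 9 lower values off fucose, where 56.5% of all genes past the filter were lower. Their median was -0.20, and it became 0.03 with centring on the T cell markers. None was 2-fold apart. S1pr1, the receptor that T cells need to leave lymphoid organs and a direct target of Klf2, had 10.06 and 9.88. It was chosen after its value was seen. The largest differences in the list were in Cd69 (0.58), which holds cells in the tissue by opposing S1pr1, in the chemokine receptor gene Cxcr4 (0.50) and in the interleukin-7 receptor gene Il7r (-0.35). The T cell markers, 8 of 8 lower off fucose, had a median of -0.23, and their summed intensity was 11297 on fucose and 9311 off fucose. Their part in these values was not tested.

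All 10 quiescence genes had lower values off fucose, with a median of -0.29 that came to -0.06 with centring on the T cell markers, and none was 2-fold apart. Of all genes past the filter 56.5% were lower. The cell cycle markers lay the other way, with 9 of 9 measured genes higher off fucose and 8 of them at least 2-fold. The shares over all genes past the filter were 42.2% and 2.37%. Birc5, among the 8, had 2.48 on fucose and passed the filter only through its off-fucose value. Its place among the higher genes follows from the filter. The cell cycle markers had a median of 2.09 and a summed intensity of 188 on fucose and 681 off fucose. Their part in these values was not tested. The largest differences among the quiescence genes were in the transcription factor gene Foxj1 (-0.44), in Foxo1 (-0.41), whose product activates Klf2, and in the antiproliferative gene Btg1 (-0.41). Foxj1 had 3.12 on fucose and 2.68 off fucose. It passed the filter only through its on-fucose value, so the size of its difference is not settled. Of the 11 upstream regulators of Klf genes, 6 were lower, 4 were higher and the glucocorticoid receptor gene Nr3c1 had 6.32 on both arrays. Their median was -0.04 and turned to 0.20 with that centring. Mapk7, the last kinase gene of the cascade that induces Klf2 through Mef2 factors, had 3.92 and 3.57, a difference of -0.35. Map3k3 and Map2k5, the kinase genes above it and chosen after their values were seen, had -0.07 and 0.06. Hdac5, the gene of a deacetylase that holds back Mef2 factors at the Klf2 promoter, had 3.91 and 4.11. None of the 11 was 2-fold apart.

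Klf4, an activator and repressor that drives monocyte differentiation, had 2.81 on fucose and 4.79 off fucose. The intensities were 7.0 and 27.7. On fucose it lay at percentile 46.5 of all genes, at the array median of 2.81 over all probe sets, and off fucose at percentile 75.4. The difference was 1.98 (3.95-fold). Since the on-fucose value lies below the filter and no background measure is given, the size of this fold is not settled.

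Monocyte markers were higher on the same array as Klf4. All 7 were higher off fucose and 5 at least 2-fold, with a median of 1.42. Among all genes past the filter 42.2% were higher and 2.37% at least 2-fold higher. Nr4a1 is among the 5 and is also an immediate early gene. The summed intensity of the 7 was 1624 on fucose and 2595 off fucose, of which Ly6c2 alone gave 1388.5 and 1895.2. Fn1, which encodes fibronectin, had 2.96 and 7.05, the lysozyme gene Lyz2 3.60 and 6.63, and Ccr2, a chemokine receptor of inflammatory monocytes, 3.59 and 5.15. Csf1r, the receptor that defines the monocyte and macrophage lineage, had 2.84 and 4.26 and was chosen after its value was seen. It passed the filter only through its off-fucose value, so its place among the higher genes follows from the filter. The part of monocytes in the Klf4 value was not tested.

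Klf1, the red cell factor, is not one of the 10 and had a difference of like size. It went from 3.56 on fucose to 5.57 off fucose, a difference of 2.01 or 4.04-fold. Red cell precursor markers lay higher on the same array, with 8 of 8 measured genes higher off fucose, 5 of them at least 2-fold, and a median of 2.51. Among all genes past the filter 42.2% were higher and 2.37% at least 2-fold higher. The summed intensity of the red cell markers was 80 on fucose and 473 off fucose. Slc4a1, the anion exchanger of red cells, had 3.22 and 6.98. The part of these cells in the Klf values was not tested.

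**Figure D2:**
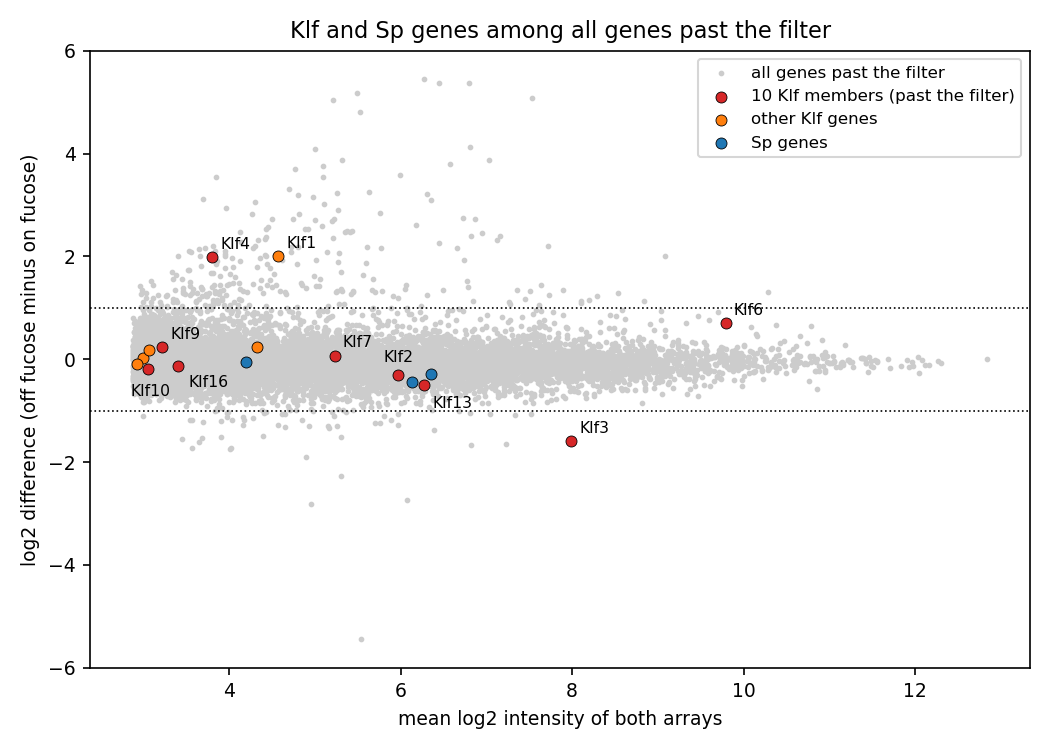
Log2 difference (off fucose minus on fucose, vertical axis) against the mean log2 intensity of both arrays (horizontal axis) for the 11090 genes past the filter (grey), the 9 Klf members past it (red), 5 other Klf genes (orange) and 3 Sp genes (blue); dotted lines mark 2-fold. Klf3 at -1.59 lies below all genes of its intensity or brighter, Klf4 and Klf1 lie near 2, and the other Klf and Sp genes lie within the dotted lines.

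Klf6, an activator that is induced early after stimulation and acts in inflammatory macrophages, had 9.44 on fucose and 10.13 off fucose. The intensities were 694 and 1124, at percentiles 98.7 and 99.4 of all genes, so this probe set was among the brightest on both arrays. The difference of 0.70 is 1.62-fold and does not reach 2-fold. Bright genes differed little between the arrays, with a robust SD of 0.18 at this intensity. Of the 204 genes with a mean at or above that of Klf6, only 1 had a higher difference. The value ran from 0.70 to 0.93 over the 6 ways of processing, with the same limits as for Klf3, since Klf6 also has 1 probe set.

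Klf6 is counted among the immediate early genes, which respond within minutes to stimulation and to tissue handling. Of the 13 other genes of that list 11 had higher values off fucose, where 42.2% of all genes past the filter did, with a median of 0.50. Of the 13, 2 were at least 2-fold higher, against 2.37% of all genes. The orphan receptor gene Nr4a1 went from 7.55 to 8.65, the stress factor gene Atf3 from 3.28 to 4.34, and Junb, an AP-1 subunit gene, from 9.05 to 9.89. Egr2, a factor induced by antigen receptors, was lower (-0.22), and Zfp36 had -0.02.

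Klf7, the nearest relative of Klf6 and known from neurons, had 5.19 on fucose and 5.27 off fucose. Its difference of 0.07 is well under the robust SD of 0.32. Its second probe set had 2.44 and 2.60, a difference of 0.16, so both probe sets had slightly higher values off fucose and neither neared 1.5-fold. Klf6 and Klf7 thus had unequal differences, 0.70 against 0.07. Klf5, an activator of epithelial cells outside the 10, differed by 0.03, near the array median.

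The Sin3-binding members were all within 1.5-fold. Klf13, a factor of T cells known for activating Ccl5, had 6.52 on fucose and 6.01 off fucose. The difference of -0.50 is 1.42-fold, against a robust SD of 0.26, and was the 155th lowest of the 3237 genes with a mean at or above that of Klf13. It was about as large as that of Cd5 (-0.50), the T cell marker with the largest difference. It was -0.27 with centring on the T cell markers. Klf9, which glucocorticoids induce, had 3.11 and 3.34, a difference of 0.24 against a robust SD of 0.29.

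Klf10, which TGF-beta induces, had 3.14 on fucose and 2.96 off fucose, and Klf16 had 3.46 and 3.33. Their differences of -0.18 and -0.13 were under the robust SD at their intensities (0.27 and 0.36) and became 0.06 and 0.10 with centring on the T cell markers. Neither gene therefore has a settled direction. Klf11, a relative of Klf10 outside the 10, had 4.21 and 4.44, and Klf14 had 2.97 and 2.87.

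**Figure D3:**
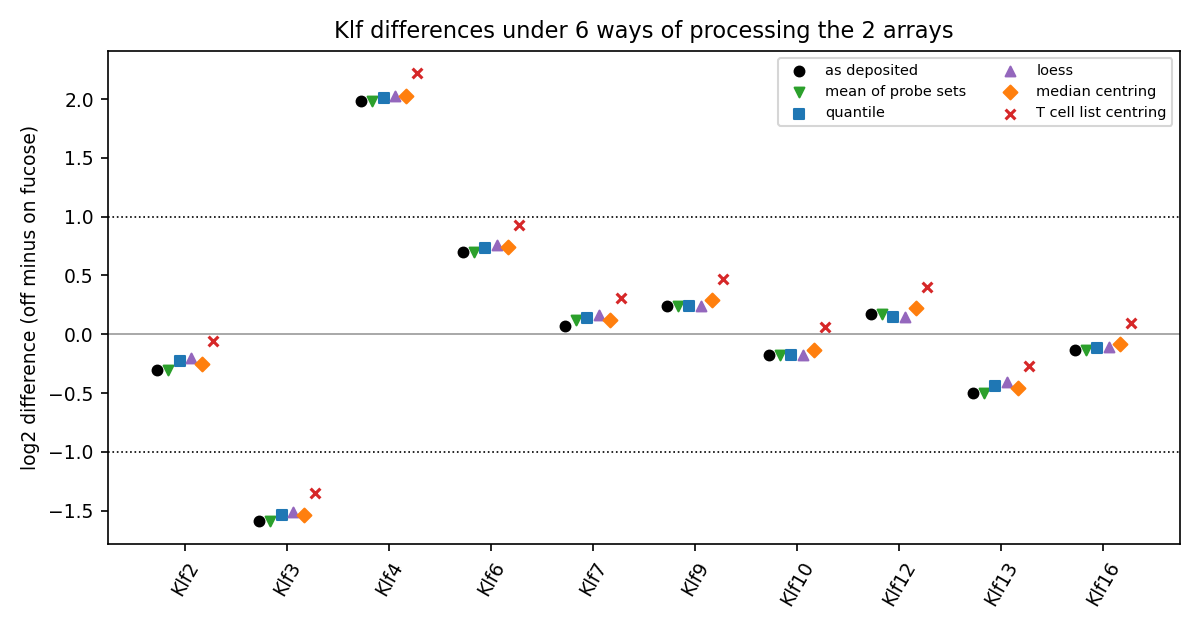
Log2 difference (off fucose minus on fucose, vertical axis) of the 10 Klf genes under 6 ways of processing the same 2 arrays (symbols); dotted lines mark 2-fold. Klf3 and Klf4 lie past 2-fold under each, Klf6 stays between 0.70 and 0.93, and Klf10 and Klf16 change sign under centring on the T cell markers.

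Genes induced by glucocorticoids and genes of the TGF-beta pathway itself had mixed differences. Of 8 glucocorticoid-induced genes past the filter, 2 lay 2-fold or more above their on-fucose value and 1 lay 2-fold or more below it. The shares over all genes past the filter were 2.37% and 0.514%. The clock gene Per1 had 6.70 on fucose and 7.82 off fucose, and the metallothionein gene Mt1 had 3.28 and 4.41. Ddit4, an inhibitor of mTOR signalling, had 4.45 and 2.92. Their median was -0.27 but their mean 0.02, so the summary chosen sets its sign.

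Of 12 TGF-beta pathway genes 9 were lower and 3 higher, none 2-fold apart, with a median of -0.16, or 0.08 with centring on the T cell markers. The share of lower values over all genes past the filter was 56.5%. The largest differences were in the signal transducer genes Smad3 (-0.60) and Smad4 (-0.44) and in Smurf2 (-0.58), the gene of a ubiquitin ligase that targets the pathway.

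Of 11 Klf cofactor genes past the filter all 11 were lower, where 56.5% of all genes were, and none was 2-fold apart. Their median was -0.24, which came to 0 with centring on the T cell markers, a shift applied to every gene alike. Fhl3, a LIM-domain partner of Klf3, had 4.94 and 4.36, the Sin3 scaffold gene Sin3b 7.31 and 6.83, and Wwp1, a ubiquitin ligase gene for Klf2, 6.32 and 5.92. Ctbp2, the one cofactor gene below the filter, had 2.57 and 2.98.

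The Sp genes, whose proteins share the zinc fingers of the Klf family, had no difference of 2-fold. Of 9 Sp genes 8 were measured and 3 passed the filter. Sp3, which activates or represses, had 6.35 on fucose and 5.90 off fucose. Sp4 had 6.49 and 6.20, and Sp1, the ubiquitous activator, had 4.23 and 4.17. The 5 below the filter had differences within 0.12 in size. Over all 17 Klf genes, 14 passed the filter, of which Klf1 and Klf4 were 2-fold higher or more and Klf3 2-fold lower or more, and the median difference was 0.05.

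**Figure D4:**
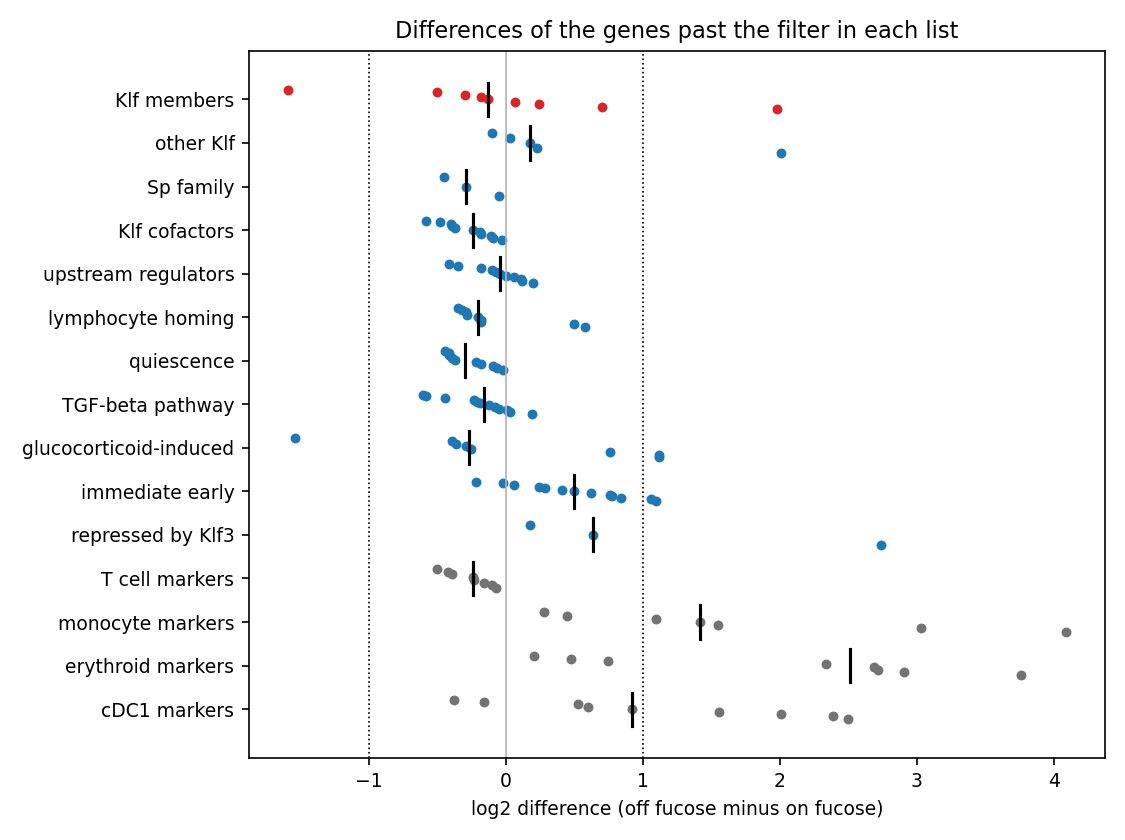
Log2 differences (off fucose minus on fucose, horizontal axis) of the genes past the filter in each list, with Klf members in red, other families and pathways in blue and cell type markers in grey; black bars are list medians and dotted lines mark 2-fold. The 9 Klf members run from -1.59 to 1.98 around a median of -0.13, whereas the 8 T cell markers lie between -0.50 and -0.07 and the 8 red cell precursor markers between 0.21 and 3.76.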

How the data were processed

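RNA of 2 spleen cell samples was labelled with the WT Pico chemistry and measured on 1 array each, per the labels. For 41345 probe sets the authors deposited a linear intensity, which the submitters' processing notes credit to RMA. RMA settings and the build are not given in the sources used here. The values ran from 2.74 to 9512, and were put on the log2 scale. Sorted by size, values of both arrays differed by 0.028 (log2) on average, so a common shift of all genes could not be seen.

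Of the probe sets, 23521 had 1 gene symbol in the platform annotation, 1814 had several and 16010 are unnamed here. Of the first, 23328 matched RefSeq (GRCm38.p6), with the same symbol. Genes with several probe sets were taken by the one with the highest mean. Differences were tabulated with Python 3.11.15 and pandas 2.3.3, and the script was tested on simulated data. Known shifts were simulated only in brighter genes, so their recovery was not checked for dim ones such as Klf4. Robust SDs are scaled median absolute deviations in 20 bins of mean intensity. No test was made with 1 array per group, and the number of arrays limits the precision.

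The members, gene lists and thresholds were chosen with earlier results of these data known. All 10 members, the other Klf and Sp genes, up to 3 genes per other list with the largest differences, and a few cDC1 and T cell markers were to be named. Xist, Uty and genes described as chosen after their values were seen fall outside that rule. So do Egr2, Zfp36, Nr3c1, Ctbp2, Itgae, Cd8a, Ly6c2, S100a8, Fcer1a, Gata1, Epb42 and Birc5. Alternatives were the mean of probe sets, quantile normalisation, loess (span 0.3), median centring, other filters and fold thresholds, the mean of a list, and centring on the T cell markers.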

Additional observations from a re-analysis of the deposited data

How the results depend on the processing

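No paired analysis was possible because there was 1 array in each group, which also kept arrays from being left out. Centring on the T cell markers, chosen after seeing the data, raised the median difference of the 11090 genes from -0.05 to 0.19. It gave 421 genes at least 2-fold higher (93.8% of calls, against 82.2%) and 28 lower, where 263 and 57 were counted. The counts were 640 and 473 at 1.5-fold and 118 and 12 at 3-fold, as a lower or higher threshold must move them. Klf3 was past 2-fold under all settings run, and Klf4 under all but 1, though the on-fucose value of Klf4 lay below the filter. The 3-fold threshold was run on the deposited values, where Klf3 passed it narrowly at 3.01-fold. With quantile normalisation (-1.54), median centring (-1.54), loess (-1.51) and centring on the T cell markers (-1.35), Klf3 was under 3-fold. With the filter at the 67th percentile (3.82), 0 of the members were at least 2-fold higher, because the mean of Klf4 (3.80) fell below it. At 1.5-fold 2 members were higher. That filter moved the medians of the other Klf genes to 1.12, of genes repressed by Klf3 to 1.69 and of glucocorticoid-induced genes to 0.76, since fewer genes remained. The means of these lists were 0.47, 1.19 and 0.02. Other values for the members moved by less than 0.29, the robust SD over all genes. Low signal limits what can be said of Klf4 on fucose and of Klf9, Klf10, Klf12 and Klf16 on both arrays.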
